A study of Macaca fascicularis with 3 samples.

Results

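The 35 genes described here act in G2 phase and mitosis: cyclins and mitotic kinases, checkpoint and kinetochore proteins, the chromosomal passenger complex, spindle and cytokinesis factors, and regulators of mitotic exit. They were chosen by symbol, and all 35 were found among the 26017 monkey features counted in each library. Their RNA was followed across 2186 monkey germ cells, out of 7827 barcodes, from cells that still carried the early germ cell gene POU5F1 to cells that expressed the synaptonemal complex gene SYCE3. The question was which of them leave first and which are present again in meiotic cells.

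The cells were cynomolgus monkey (Macaca fascicularis) germ cells derived from the wildtype embryonic stem cell line 15XRi-AGVT#7, labelled Early oogonia. Its 2 reporters are TFAP2C-EGFP, which marks early germ cells, and DDX4-tdTomato, which marks more advanced ones. They were grown in an xrOvary, an aggregate with mouse ovarian somatic cells, to a time point given as ag49+52, which the labels do not explain. There were 3 libraries from 3 groups that shared line, genotype and time and differed in the embryonic stage of the mouse cells, and each stage (E13.5, E14.5, E15.5) gave 1 library. Cells positive for either or both reporters were sorted, so germ cells negative for both were not sampled, and sorted mouse cells were mixed in before loading. The mouse cells supply the whole somatic side, and a single line was used.

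Germ cells divide by mitosis before they enter meiosis. In the mitotic cycle cyclins A and B accumulate with their kinase CDK1 towards mitosis, and the anaphase-promoting complex then destroys them. A germ cell that enters meiotic prophase copies its DNA once more and then remains in a prolonged G2-like prophase, in which homologous chromosomes pair along the synaptonemal complex and no spindle is built. Many proteins of the mitotic spindle and kinetochore are used again at the meiotic divisions, which in females come much later.

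Germ cells were barcodes with 2 to 20% of their UMIs (unique molecular identifiers, counts of captured RNA molecules) in 13 mitochondrially encoded genes and at least 10000 UMIs. Values for the 3 libraries are given in the order of stage throughout. There were 537, 536 and 1113 germ cells, with medians of 55620, 43003 and 48553 UMIs. Libraries shared barcodes: 199 between E13.5 and E14.5, 643 between E13.5 and E15.5 and 212 between E14.5 and E15.5. Of these, 0 were germ cells in both libraries. The barcodes of 267, 58 and 344 germ cells were also found in another library, there with medians of 1255, 703 and 922.5 UMIs as shallow barcodes. These barcodes were spread unevenly over the states defined below: 4 of 388 POU5F1-high, 280 of 942 unmarked, 259 of 670 STRA8-positive and 126 of 186 SYCE3-high cells. Results are therefore also given without them.

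Each germ cell was placed in 1 of 4 states by 3 genes that are not on the list. A cell was SYCE3-high at 3.01 SYCE3 UMIs or more per 10000 UMIs. Otherwise it was STRA8-positive at 0.214 or more of STRA8, a gene induced by retinoic acid at meiotic entry. Otherwise it was POU5F1-high at 5.45 or more of POU5F1, and the rest were unmarked. Each gate also asked for at least 2 UMIs of its gene. Of 922 cells at or above the STRA8 threshold, 201 had 1 STRA8 UMI and did not pass, so unmarked cells can hold STRA8 RNA. Per library there were 55, 120 and 213 POU5F1-high cells, 238, 250 and 454 unmarked cells, 194, 121 and 355 STRA8-positive cells, and 50, 45 and 91 SYCE3-high cells. These are ranges cut from continuous levels: 49 cells lay within 25% below the SYCE3 threshold and 32 within 25% above it, 105 and 97 for STRA8, and 16 and 22 for POU5F1. STRA8 was also past its threshold in 51 of the 186 SYCE3-high cells.

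The markers followed the states at both ends. Summed over 6 early germ cell genes (NANOG, TFAP2C, SOX17, PRDM1, NANOS3 and TCL1B), levels were 1083 to 1189 CPM (UMI counts scaled to the total UMIs of each sum) in POU5F1-high cells and 34.0 to 73.9 CPM in SYCE3-high cells. The sum of 9 meiotic prophase genes such as SYCP1, SPO11 and DMC1 was 37.8 to 57.2 CPM in POU5F1-high cells and 957 to 1305 CPM in SYCE3-high cells. DDX4 and DAZL were present in every state, and the label of early oogonia therefore covers cells that also hold meiotic prophase RNA. Markers of mouse supporting cells (9 genes) summed to 51.6 to 60.5, 100.02 to 128, 112 to 129 and 81.1 to 159.6 CPM in POU5F1-high, unmarked, STRA8-positive and SYCE3-high cells, against 2630.4 to 3003 CPM in mouse-type barcodes. Their defining genes FOXL2 and RSPO1 reached 9.68 and 0.448 CPM in germ cells, against up to 36.2 and 7.67 CPM in mouse-type barcodes. Without cells holding UMIs of 2 or more somatic markers, the comparisons below gave 25 members higher and 1 lower in unmarked over POU5F1-high cells, 0 and 7 in STRA8-positive over unmarked cells, and 2 and 18 in SYCE3-high over STRA8-positive cells. Of 15083 genes tested, 5164 were called higher and 4823 lower, then 203 and 304, and then 3853 and 3932.

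As a whole the 35 genes were highest in unmarked cells. Their summed level was 2721, 2571 and 3052 CPM in POU5F1-high cells. It was 5902, 5178 and 5135 CPM in unmarked cells, 5021, 4109 and 4058 CPM in STRA8-positive cells, and 3192, 4969 and 2911 CPM in SYCE3-high cells. Mouse-type barcodes, those with under 2% mitochondrial UMIs and at least 1000 UMIs, held 217, 243 and 259 CPM of the same genes. The POU5F1-high sums lay below the unmarked sums in 3 of 3 libraries, and the SYCE3-high sum of E14.5 stood above those of the other libraries. A sum over cells cannot tell fewer cycling cells from less RNA per cell.

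**Figure D1:**
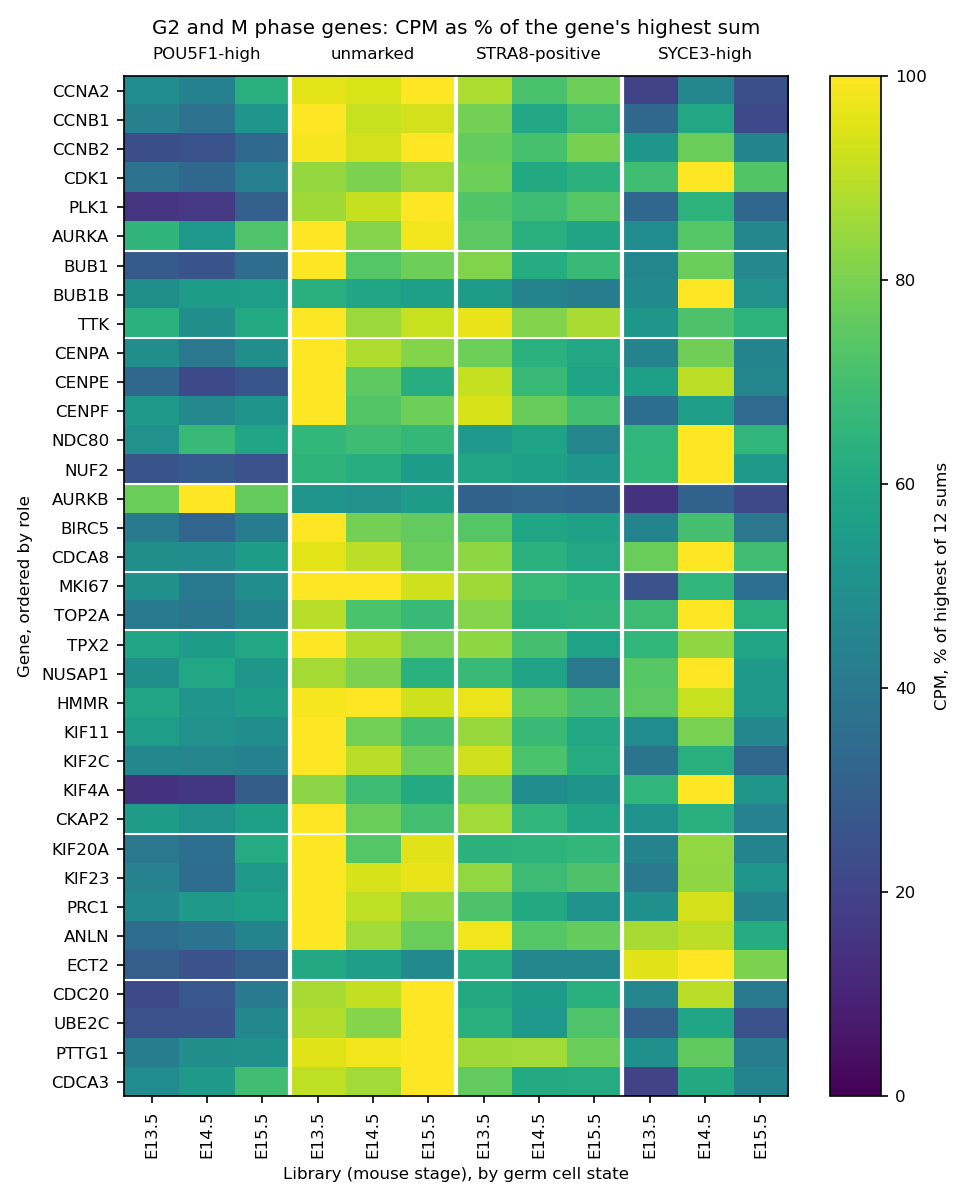
Level of each of the 35 genes (rows, ordered by role) in each state and library (12 columns), as a percentage of the gene's own highest CPM, so that colours compare states within a gene and not genes with each other. Most rows are brightest in unmarked cells, AURKB is brightest in POU5F1-high cells, and BUB1B, CDCA8, CDK1, ECT2, KIF4A, NDC80, NUF2, NUSAP1 and TOP2A are brightest in the SYCE3-high sum of E14.5.

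States were compared over the 3 libraries with edgeR's quasi-likelihood test on 12 sums of UMIs, with the library as a block and Benjamini-Hochberg adjustment over 15711 genes. Libraries serve as repeats although they differ in mouse stage. The block removes each library's own level, so p-values measure how far the differences between states vary over these libraries. The test uses TMM scaling, which matters for POU5F1-high cells: their factors were 0.70 to 0.79, against 1.03 to 1.19 in the other states. In POU5F1-high cells 80 ribosomal protein genes took 26.4 to 30.0% of UMIs. Their share was 15.8 to 17.7% in unmarked, 14.1 to 15.4% in STRA8-positive and 11.3 to 12.5% in SYCE3-high cells. Without TMM the median of all genes lay 0.57 (log2) higher in unmarked than in POU5F1-high cells, and 0.69 higher in SYCE3-high than in POU5F1-high cells. The part of the ribosomal genes in this shift was not tested. Fold changes against POU5F1-high cells are relative to the bulk of genes. Plain CPM values overstate increases over POU5F1-high cells and understate decreases.

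In unmarked over POU5F1-high cells 21 members rose and 3 fell, where 35.4% of all tested genes were called higher and 33.2% lower. The median log2 fold change was 0.39 for the members and 0.052 for all genes. With total UMIs in place of TMM the members' split was 32 higher and 1 lower, where 9515 of 15711 genes were called higher and 2408 lower. The medians were then 0.90 for the members and 0.57 for all genes. Of the 21 that rose, 15 kept the call whichever library was left out, and 19 kept it without the barcodes found in another library.

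Among cyclins and kinases 5 of 6 rose. PLK1, the polo kinase of mitotic entry and spindle assembly, stood at 25.04, 27.7 and 51.2 CPM in POU5F1-high cells and at 143, 153 and 167 CPM in unmarked cells. The unmarked sums were higher in every library and did not overlap with the POU5F1-high ones, and the log2 fold change was 1.57 ± 0.19 (SE; edgeR adjusted p = 4.74e-07). CCNB2, a B-type cyclin, rose from 39.4, 41.2 and 55.8 CPM to 161, 152 and 164 CPM, a log2 fold change of 1.26 ± 0.14 (edgeR adjusted p = 1.94e-07). CDK1, the kinase of both cyclins, rose by 0.59, CCNB1 by 0.56 and CCNA2 (cyclin A) by 0.36, while AURKA, the kinase of centrosomes and spindle poles, had a log2 fold change of 0.01 with SE 0.13.

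Of the 4 regulators of mitotic exit, 3 rose. CDC20, the activator of the anaphase-promoting complex, stood at 53.1, 65.6 and 99.6 CPM in POU5F1-high and at 209, 218 and 240.0 CPM in unmarked cells, with no overlap (1.06 ± 0.20; edgeR adjusted p = 8.52e-05). UBE2C, the E2 enzyme of that complex, rose by 0.94 and PTTG1, the securin, by 0.52. CDCA3, which promotes destruction of the mitosis inhibitor WEE1, was not called at 0.14. In the other roles the largest increases were in KIF4A, a chromosome-bound kinesin (1.10), CENPE, the kinetochore kinesin (0.97), BUB1, a checkpoint kinase (0.91), and NUF2, a subunit of the NDC80 complex that holds microtubules (0.67).

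AURKB, the kinase of the chromosomal passenger complex, went the other way. It stood at 35.8, 46.2 and 35.3 CPM in POU5F1-high cells and at 24.0, 23.4 and 25.4 CPM in unmarked cells. The groups did not overlap, and the log2 fold change was -1.18 ± 0.12 (edgeR adjusted p = 4.35e-08). The call held under all 18 alternatives, with -0.67 under total UMIs. The other members of the complex on the list did not fall with it: BIRC5 (survivin) rose by 0.59 and CDCA8 (borealin) was not called at 0.22.

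The other 2 falls at this step rest on the scaling. BUB1B, the checkpoint protein BubR1, stood at 67.7, 74.9 and 75.3 CPM in POU5F1-high and 85.8, 79.4 and 76.7 CPM in unmarked cells, higher by CPM in each library. Its log2 fold change was -0.38 with TMM (edgeR adjusted p = 0.0337), 0.13 with total UMIs, and -0.29 without E15.5 (edgeR adjusted p = 0.251). NDC80, which gives its name to the microtubule-binding complex, stood at 20.6, 27.7 and 24.3 CPM and then at 27.1, 28.2 and 27.3 CPM. Its value was -0.35 with TMM (edgeR adjusted p = 0.0144), 0.17 with total UMIs, -0.24 without E14.5 and -0.32 without E15.5, the last 3 not called. By CPM, 34 of the 35 genes were higher in unmarked cells in 3 of 3 libraries and AURKB was the exception. The same count over all genes is not given here, and with total UMIs 9515 of 15711 genes were called higher at this step.

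**Figure D2:**
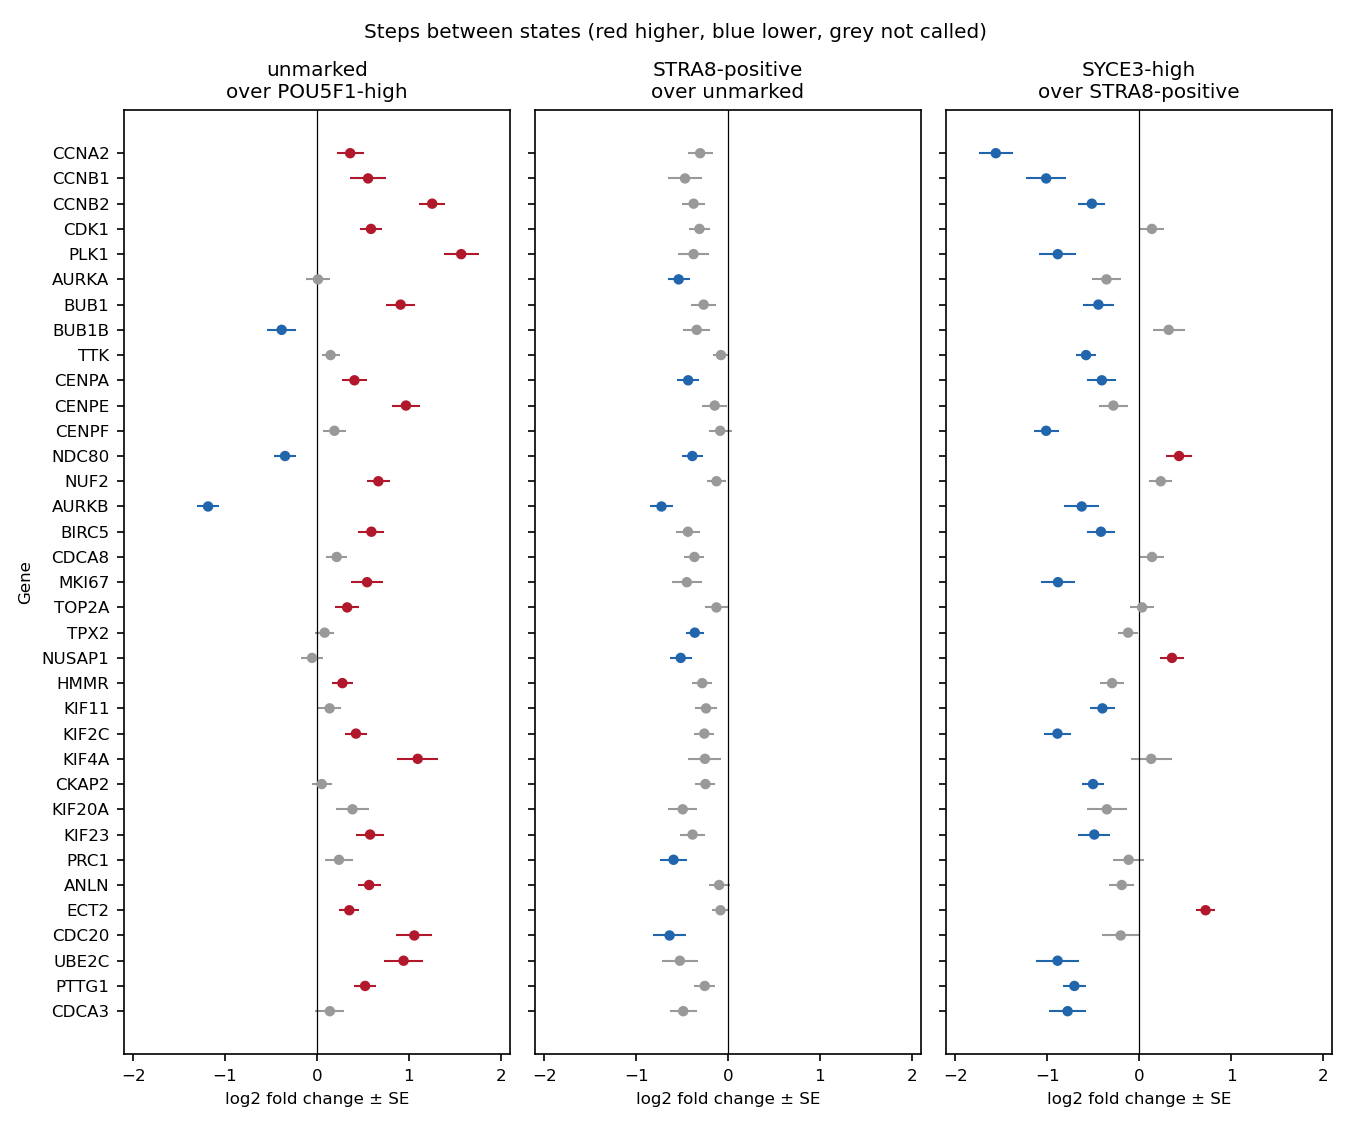
Log2 fold change with its standard error for each of the 35 genes at the 3 steps between states, from the edgeR fit of 12 sums (red higher, blue lower, grey not called). Red points dominate the first step (21 of 35), the second step has 8 blue and 0 red points, and the third has 18 blue points and 3 red ones (NDC80, NUSAP1 and ECT2).

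In STRA8-positive over unmarked cells 8 members fell and 0 rose, where 3.7% of all tested genes were called lower and 2.16% higher. By edgeR's unadjusted p under 0.05, 25 members were lower and 0 higher, where 3285 of 15711 genes passed in either direction. DESeq2 called 5 members lower and 0 higher, and 388 of 26014 genes lower and 270 higher. The median log2 fold change of the members was -0.36 and that of all genes was -0.00071, and 33 of the 35 were lower by CPM in 3 of 3 libraries. That count by CPM over all genes is not given here. The calls depended on the libraries: 5 members were called lower without E13.5 and 0 without E15.5 (14 by unadjusted p), and 17 without the barcodes found in another library. Of all genes 344 of 15858, 17 of 14896 and 279 of 14278 were called lower in these settings. Without the library block 0 members were called lower or higher, with 15 lower and 0 higher by unadjusted p. Among all 15711 genes 10 were then called lower and 7 higher. Genes passing the unadjusted p in either direction were 1452 of 14896 without E15.5 and 1627 of 15711 without the block. The members' median was -0.36 without the block and -0.30 without E15.5, and under the 18 alternatives it ran from -0.27 to -0.75 with 0 members called higher.

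AURKB fell again, to 14.3, 15.3 and 14.8 CPM in STRA8-positive cells, below each of its unmarked sums (-0.72 ± 0.12; edgeR adjusted p = 0.00239; 0.163 without E15.5). CDC20 fell from 209, 218 and 240.0 CPM to 145.4, 132 and 152 CPM, also without overlap (-0.64 ± 0.18; edgeR adjusted p = 0.0451). PRC1, which bundles microtubules of the central spindle, fell from 149, 134.7 and 124 CPM to 107, 90.3 and 75.9 CPM (-0.59 ± 0.14; edgeR adjusted p = 0.0199). All 3 genes were lower in each of the 3 libraries.

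The remaining falls were those of AURKA (-0.54), the spindle protein NUSAP1 (-0.51), the centromeric histone CENPA (-0.43), NDC80 (-0.39) and TPX2, the activator of AURKA on the spindle (-0.36). The sums of the 2 states overlapped for NUSAP1 and TPX2 and did not for AURKA, CENPA and NDC80. The cyclins and their kinase were lower by CPM in 3 of 3 libraries but were not called: CCNB1 had a log2 fold change of -0.47, CCNB2 -0.37, CDK1 -0.31 and CCNA2 -0.30. TTK, a checkpoint kinase, ECT2, a cytokinesis factor, and CENPF, a kinetochore protein, had the values nearest to 0, at -0.077, -0.082 and -0.085, none of them called.

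In SYCE3-high over STRA8-positive cells 18 members fell and 3 rose, where 26.7% of all tested genes were called lower and 26.8% higher. The median log2 fold change was -0.40 for the members and -0.014 for all genes. With total UMIs in place of TMM the split was 13 lower and 5 higher, where 3384 of 15711 genes were called lower and 4906 higher. Left-out libraries moved the members' counts: 10 were lower without E13.5, 27 without E14.5 and 10 without E15.5, and 4, 1 and 2 were higher. Of all genes 3575 of 15858, 3964 of 16563 and 2861 of 14896 were then called lower, and 3628, 3838 and 2962 higher. Of the 18 that fell, 9 kept the call whichever library was left out. Without the barcodes found in another library, which left 10, 31 and 19 SYCE3-high cells, 4 of the 18 kept it (CCNA2, CENPF, MKI67 and CKAP2), as did NUSAP1 and ECT2 of the 3 that rose.

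CCNA2 had the largest fall. It stood at 109, 88.8 and 97.1 CPM in STRA8-positive cells and at 25.5, 57.8 and 30.3 CPM in SYCE3-high cells. The groups did not overlap, and E14.5 fell least. The log2 fold change was -1.56 ± 0.19 (edgeR adjusted p = 9.49e-07), -1.99 without E14.5 and -0.77 without the barcodes found in another library. CENPF and CCNB1 each fell by 1.01 on the log2 scale, and CENPF, at 501, 409.8 and 372 CPM before and 194, 298 and 187 CPM after, did so without overlap.

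PLK1, at 122, 114 and 123 CPM in STRA8-positive cells, was at 55.6, 108 and 55.8 CPM in SYCE3-high cells (-0.89 ± 0.20; edgeR adjusted p = 0.00103). UBE2C went from 183, 153 and 209 CPM to 88.3, 170.3 and 72.3 CPM (-0.89 ± 0.23; edgeR adjusted p = 0.00356). In UBE2C the E14.5 SYCE3-high sum was above its STRA8-positive sum and the groups overlapped, while in PLK1 all 3 libraries were lower. Without the barcodes found in another library the values were 0.11 and 0.03, neither called, and without E15.5 UBE2C was not called either (-0.47; edgeR adjusted p = 0.0828). MKI67, the chromosome-coating Ki-67, fell by 0.88, KIF2C, a microtubule-depolymerising kinesin, by 0.89, CDCA3 by 0.78 and PTTG1 by 0.70.

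AURKB fell by 0.62 and lost the call without E13.5 (-0.47) or without E15.5 (-0.60). The 8 remaining falls were smaller, from -0.40 to -0.58: TTK, CCNB2, CKAP2 (a microtubule-stabilising protein), KIF23 (the central spindle kinesin MKLP1), BUB1, BIRC5, CENPA and KIF11 (the kinesin that pushes spindle poles apart). CDK1 did not follow the cyclins: it stood at 102, 79.4 and 84.2 CPM and then at 90.9, 131 and 95.3 CPM. The change of CDK1 was 0.14 ± 0.13 (edgeR adjusted p = 0.375), higher in 2 of 3 libraries. Topoisomerase TOP2A was level in the fit at 0.03, and without E14.5 it was called lower at -0.29 (edgeR adjusted p = 0.0119).

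ECT2, the exchange factor that activates RhoA for the cleavage furrow, rose. It stood at 71.0, 52.6 and 53.2 CPM in STRA8-positive cells and at 109, 114 and 91.4 CPM in SYCE3-high cells. The SYCE3-high sums were all above the STRA8-positive ones, and the log2 fold change was 0.72 ± 0.11 (edgeR adjusted p = 1.27e-05). The call held under all 18 alternatives, with values from 0.35 to 1.16. Against POU5F1-high cells, at 34.7, 29.3 and 35.1 CPM, ECT2 was higher by 0.995 ± 0.117 on the log2 scale.

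NDC80 and NUSAP1 were the genes that fell at an earlier step and rose here. NDC80 went from 22.2, 23.8 and 18.6 CPM to 26.9, 40.9 and 27.0 CPM, without overlap (0.43 ± 0.14; edgeR adjusted p = 0.0133). NUSAP1 went from 111, 95.2 and 65.9 CPM to 122, 165 and 89.6 CPM, higher in each library with overlapping groups (0.36 ± 0.13; edgeR adjusted p = 0.0312). Neither call held in every setting: without E14.5 the values were 0.29 and 0.15, without E15.5 they were 0.47 and 0.39, and none of these was called. With the gate thresholds lowered by 50% both turned slightly negative, at -0.07 and -0.18, not called.

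Within the SYCE3-high state several members were higher in the cells of highest SYCE3, while PLK1, UBE2C, CCNA2 and CENPF were lower there. Within each library SYCE3-high cells were split at the median SYCE3 level (5.79, 6.11 and 6.98 per 10000 UMIs), which gave 25, 22 and 45 cells below and 25, 23 and 46 at or above it. A fit of 15 sums with these as separate states was added after the first results were seen. It called 7 members higher and 4 lower in the upper cells than in the lower ones, where 12.2% of 15170 genes were called higher and 10.8% lower. By CPM 17 members were higher in the upper cells in 3 of 3 libraries and 6 lower, and these counts over all genes are not given here. The median log2 fold change in the fit was 0.23 for the members and -0.033 for all genes.

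BUB1B differed most. It stood at 34.6, 84.5 and 39.9 CPM in the lower cells and at 94.2, 191 and 98.6 CPM in the upper ones, without overlap (1.30 ± 0.24; edgeR adjusted p = 0.000544). NUSAP1 went from 61.2, 144 and 58.3 CPM to 185, 189 and 123 CPM, higher in 3 of 3 libraries with overlap (0.98 ± 0.20; edgeR adjusted p = 0.00140). TOP2A went from 401, 726 and 371 CPM to 865, 1131 and 795 CPM, without overlap (0.94 ± 0.17; edgeR adjusted p = 0.000439).

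The other increases in the upper cells were in the cytokinesis scaffold ANLN (0.70), ECT2 (0.68), CDCA8 (0.68) and TPX2 (0.57). The genes that went down further were PLK1 (-1.25), UBE2C (-1.17), CCNA2 (-0.95) and CENPF (-0.62). CCNA2 in the upper cells was at 23.5, 23.4 and 24.6 CPM, so the high E14.5 value of CCNA2 came from the lower cells, at 27.5, 89.5 and 35.6 CPM. UBE2C likewise stood at 105, 254 and 94.7 CPM in the lower cells and at 71.5, 79.9 and 48.4 CPM in the upper ones.

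**Figure D3:**
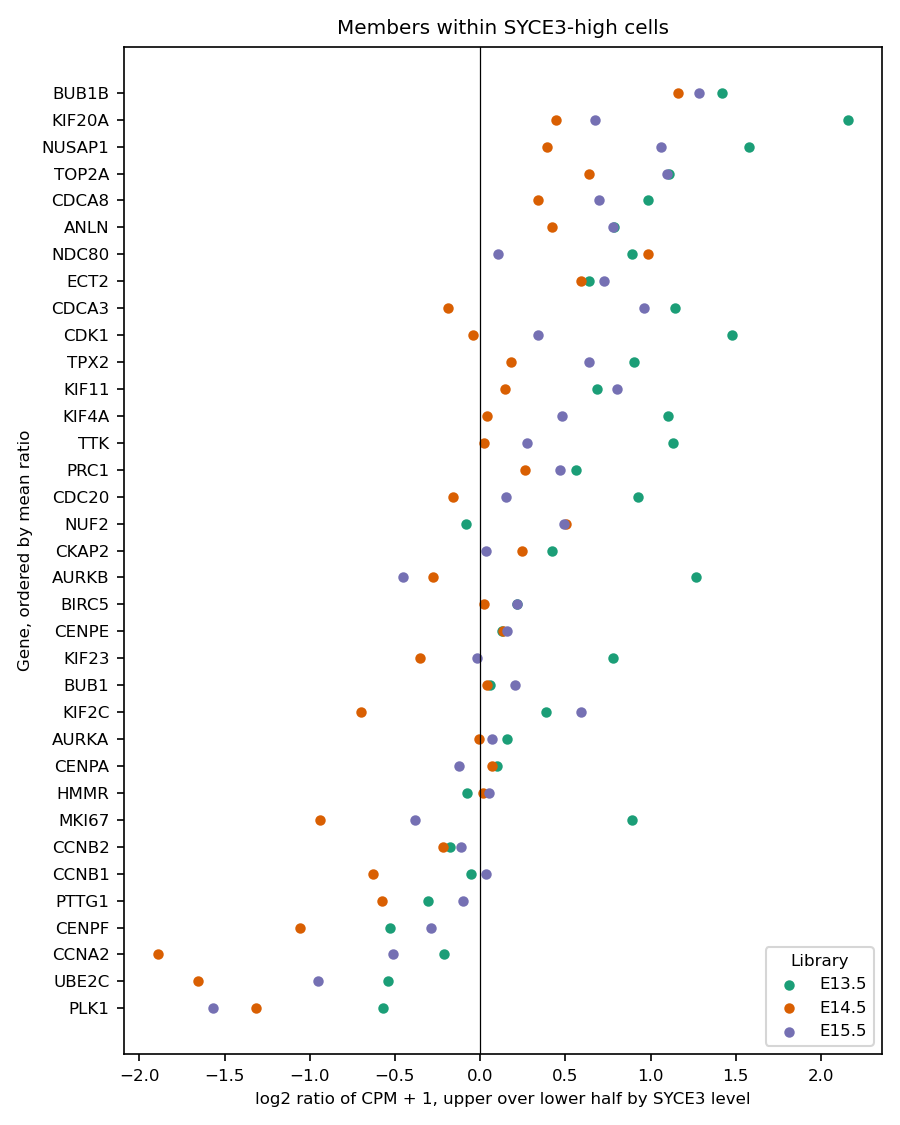
Log2 ratio of CPM + 1 in SYCE3-high cells at or above the library's median SYCE3 level over those below it, for each of the 35 genes and each library (points coloured by library, genes ordered by their mean ratio). BUB1B, NUSAP1 and TOP2A lie right of 0 and PLK1, UBE2C and CCNA2 left of 0 in all 3 libraries.

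Set against STRA8-positive cells, the upper SYCE3-high cells were higher in 7 members and lower in 12 (27.7% and 28.4% of all genes). In the upper cells the 7 were ECT2 (1.04), BUB1B (0.84), NUSAP1 (0.77), NDC80 (0.72), CDCA8 (0.45), TOP2A (0.42) and NUF2 (0.41). The 12 lower were led by CCNA2 (-2.13), PLK1 (-1.68), UBE2C (-1.63), CENPF (-1.37), CCNB1 (-1.19) and MKI67 (-1.10). In the lower cells ECT2 was also above STRA8-positive cells (0.35) and BUB1B was not called. The split was not repeated without the barcodes found in another library, which would leave at most 10 SYCE3-high cells in E13.5.

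**Figure D4:**
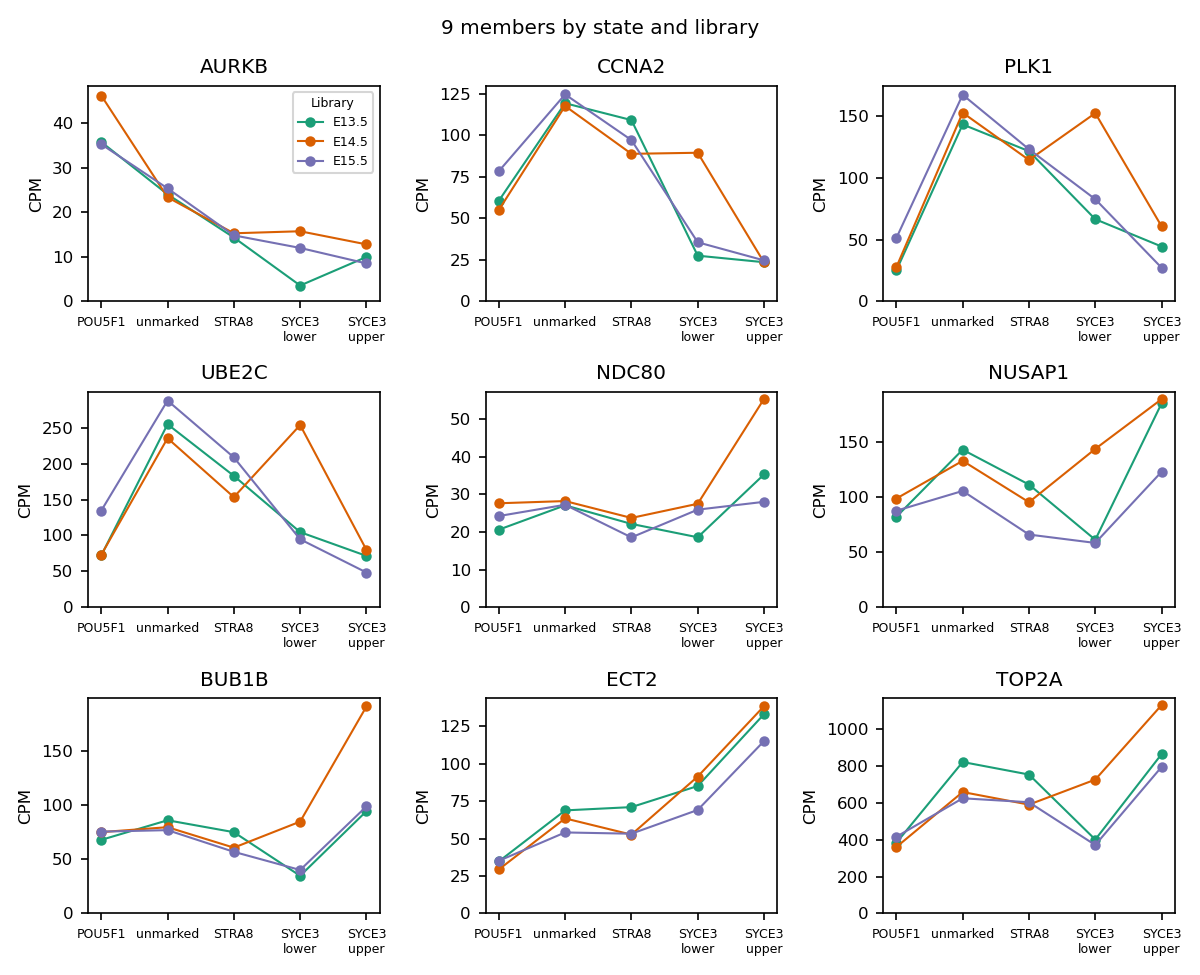
CPM of 9 members (AURKB, CCNA2, PLK1, UBE2C, NDC80, NUSAP1, BUB1B, ECT2 and TOP2A) in the 3 libraries across POU5F1-high, unmarked and STRA8-positive cells and SYCE3-high cells below and above the library's median SYCE3 level. CPM axes start at 0, differ between panels and are without TMM scaling. AURKB is lower in STRA8-positive than in POU5F1-high cells in all 3 libraries and has no common direction within SYCE3-high cells, CCNA2 ends at 23.4 to 24.6 CPM in the 3 libraries, and BUB1B and ECT2 end above their STRA8-positive level.

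The order of states was assumed and not tested, and unmarked cells are those left by the 3 gates. STRA8-positive cells were lower than unmarked cells in 3 of 3 prospermatogonia-type genes (median log2 fold change -2.81) and 2 of 3 tested oocyte genes (-1.30). They were higher in 4 of 5 premeiotic genes (0.52) and lower in 4 of 6 early germ cell genes (-0.48). By the calls of the 4-state fit, in this order, 2 members left at the first step (AURKB and BUB1B) and 5 at the STRA8 step (AURKA, CENPA, TPX2, PRC1 and CDC20). A further 16 were first called lower in SYCE3-high cells. That is an order of calls and not of first decreases. Of the 16, UBE2C (-0.52) and MKI67 (-0.45) already had lower values at the STRA8 step without a call. TTK (-0.077) and CENPF (-0.085) changed little there, and TPX2 was called at -0.36. NDC80 and NUSAP1 left and returned, ECT2 rose without an earlier called fall, and no fall was called in 9: CDK1, CENPE, NUF2, CDCA8, TOP2A, HMMR, KIF4A, KIF20A and ANLN. Of these 9, KIF20A (-0.49) and CDCA8 (-0.37) were lower by CPM in 3 of 3 libraries at the STRA8 step without a call. HMMR is a spindle pole protein and KIF20A the central spindle kinesin MKLP2. AURKB was the 1 early departure that held under every alternative run. Of the 8 calls at the STRA8 step, 0 held with each library left out in turn. With doubled thresholds 33 members were called lower there (1264 of 15132 genes), so the split between this step and the next depends on the setting.

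Over the whole path, SYCE3-high over POU5F1-high cells, 6 members were higher and 16 lower, where 38.4% of all genes were called higher and 35% lower. With total UMIs the split was 16 higher and 3 lower, where 9248 of 15711 genes were called higher and 2862 lower. The medians were then 0.23 for the members and 0.69 for all genes. Without E14.5 the split was 3 and 23, and without E15.5 it was 10 and 7. Of all genes 6001 of 16563 were higher and 5326 lower without E14.5, and 4977 of 14896 and 4486 without E15.5. AURKB had the largest decrease (-2.53 ± 0.17; edgeR adjusted p = 1.02e-10), from 35.8, 46.2 and 35.3 CPM to 6.72, 14.3 and 10.3 CPM, and CCNA2 followed at -1.50 and CDCA3 at -1.12. The increases were in ECT2 (0.995), KIF4A (0.98), NUF2 (0.78), CENPE (0.54), CDK1 (0.42) and CCNB2 (0.37). NUF2 and ECT2 were the only 2 of these 6 to keep the call under all 18 alternatives.

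Mitotic RNA was spread unevenly over cells of each state. After every cell was thinned to 10000 UMIs, at least 10 members were detected in 58.2, 50.8 and 49.3% of POU5F1-high cells. The shares were 71.4, 70.4 and 68.1% in unmarked, 77.8, 66.9 and 73.2% in STRA8-positive, and 58.0, 64.4 and 60.4% in SYCE3-high cells. Before thinning they were 91.1 to 100% in every state, so they depend on depth. In deep mouse-type barcodes treated alike (medians of 12699.5 to 12949 UMIs before thinning) the share was 3.5 to 5.7%. POU5F1-high and SYCE3-high shares were both below the unmarked and STRA8-positive shares in each library. Thinning evens out total UMIs and not composition, and TMM factors were 0.70 to 0.79 in POU5F1-high cells and 1.03 to 1.19 elsewhere. The part of composition in the lower POU5F1-high shares was not tested. The exact binomial 95% intervals of the unmarked state overlapped those of SYCE3-high cells in 3 of 3 libraries and those of POU5F1-high cells in E13.5.

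At 15 or more members the unmarked state stood highest in 3 of 3 libraries, at 51.7, 46.8 and 46.0%. The STRA8-positive shares were 43.3, 30.6 and 34.1%, the SYCE3-high shares 32.0, 44.4 and 36.3% and the POU5F1-high shares 23.6, 27.5 and 28.6%. The unmarked and SYCE3-high intervals overlapped in all 3 libraries. The 90th percentile of unmarked cells was 29 of the 35 genes in each library, against medians of 15, 14 and 13.

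**Figure D5:**
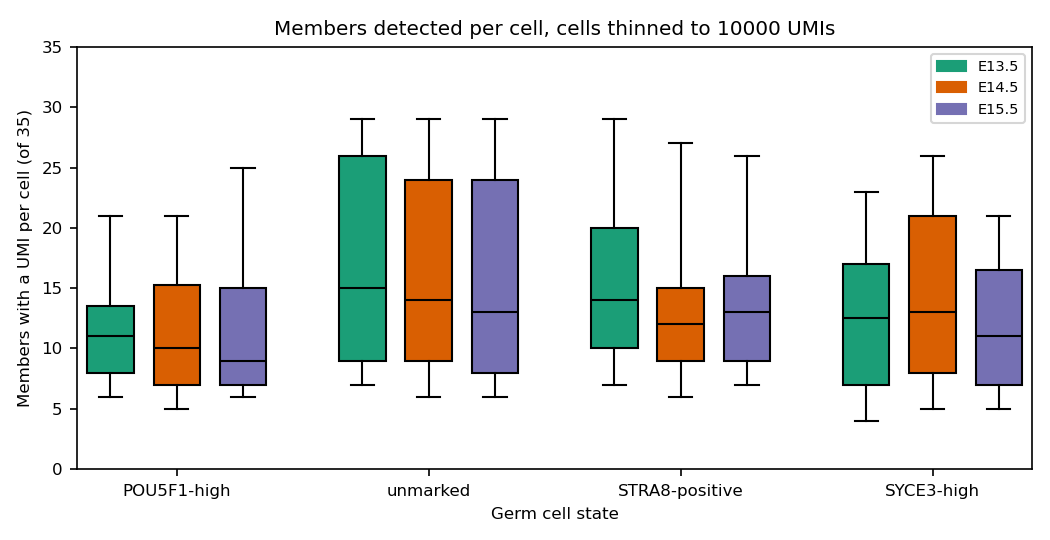
Number of the 35 genes with at least 1 UMI per cell, after thinning each cell to 10000 UMIs, by state and library (line, median; box, middle 50% of cells; whiskers, 10th to 90th percentile). Medians are 15, 14 and 13 in unmarked cells and 11, 10 and 9 in POU5F1-high cells, and boxes overlap across states. Thinning was by total UMIs, without TMM scaling.

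Within a state the members went together to different degrees. Cells of each state and library were ranked by the summed level of the other 34 genes, and each gene's CPM was compared below and above the median rank. The low cells held a median of 26.7, 17.7, 23.8 and 17.0% of the high cells' level in POU5F1-high, unmarked, STRA8-positive and SYCE3-high cells. UBE2C was among the most uneven: in unmarked cells its mean was 15.6 ± 3.78 CPM (SD, n = 3 libraries) in the low and 436 ± 43.6 CPM in the high cells, 3.57%. PLK1 was alike at 13.4 ± 0.66 and 257 ± 19.6 CPM, 5.21%.

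Other members persisted in cells with little of the rest. TTK stood at 37.0 ± 3.19 CPM in low and 80.7 ± 6.55 CPM in high unmarked cells, 45.9%. ECT2 in low SYCE3-high cells was at 65.1 ± 8.22 CPM, above its mean of 37.4 ± 3.31 CPM in low STRA8-positive cells, and 48.7% of the level in high SYCE3-high cells. For AURKB the low cells held 29.3% of the high cells' level in POU5F1-high, 11.9% in unmarked, 5.56% in STRA8-positive and 39.6% in SYCE3-high cells. The last share rests on small values, 5.48 ± 2.83 CPM in low and 13.9 ± 3.73 CPM in high SYCE3-high cells. Across cells the rank correlation of a member with the sum of the others had a median over members of 0.40, 0.57, 0.42 and 0.40 (388, 942, 670 and 186 cells), values that share the library and depth of each cell.

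The libraries differed within 1 state above all. In SYCE3-high cells all 35 members were higher in E14.5 than in E13.5, with a median log2 ratio of CPM + 1 of 0.65 against -0.042 over all genes, and 5 were 2-fold or more higher (0.746% of all genes). All 35 were lower in E15.5 than in E14.5, with a median of -0.78, and 4 were 2-fold or more lower (0.456% of all genes). Between E13.5 and E14.5 the largest log2 ratio was 1.49, in CDCA3, from 14.8 to 43.5 CPM, followed by MKI67 (1.35), CCNA2 (1.15) and BUB1B (1.07). CDCA3 was also the 1 member 2-fold or more higher in E15.5 than in E13.5 (1.06; 0.547% of all genes). The SYCE3-high cells whose barcode was found in another library were 80.0, 31.1 and 79.1% of the state in E13.5, E14.5 and then E15.5, so E14.5 stood apart in this too, and the part of these barcodes in the E14.5 excess was not tested. With 1 library a stage, mouse stage and library cannot be told apart.

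In the other states the differences were smaller. The members' median log2 ratios between libraries were -0.090 to 0.25 in POU5F1-high, -0.16 to -0.050 in unmarked and -0.36 to -0.042 in STRA8-positive cells. In STRA8-positive cells 31 of 35 members were lower in E14.5 and 29 lower in E15.5 than in E13.5. The 1 member that was 2-fold or more apart in these states was PLK1 in POU5F1-high cells, at 25.04 CPM in E13.5, while E15.5 had 51.2 CPM (0.123% of all genes were this much higher).

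Other genes of the same processes were read from a list of 103, of which 97 were tested. At the first step 24 of them were higher and 34 lower, at the STRA8 step 0 and 10, and at the SYCE3 step 23 and 32, with median log2 fold changes of -0.053, -0.19 and -0.061. Over all genes 35.4% were higher and 33.2% lower at the first step, 2.16% and 3.7% at the STRA8 step, and 26.8% and 26.7% at the SYCE3 step, so that at the first and SYCE3 steps the list's counts lie near or below these shares, apart from the 32 lower at the SYCE3 step, which lie somewhat above. Among 16 spindle genes, 8 were higher and 2 lower at the first step, 0 and 4 at the STRA8 step, and 4 and 5 at the SYCE3 step. Among 21 kinetochore and checkpoint genes the counts were 6 and 5, 0 and 1, and 5 and 7.

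At the first step the largest increases were in DEPDC1 (1.32), a mitotic gene, CCNB3 (1.22), a B-type cyclin with a known role in meiosis, and KIF18A (0.96), a kinesin that limits chromosome movement. The largest decreases were in MASTL (-1.85), the Greatwall kinase that restrains the phosphatase PP2A, the repressor E2F7 (-1.50) and the phosphatase CDC25B (-1.30), which activates CDK1. INCENP, the scaffold that holds AURKB, was called lower at all 3 steps, at -0.54, -0.49 and -0.89, and was named after its values were seen. By CPM it was level at the first step, at 41.3, 36.9 and 39.9 and then 44.4, 36.0 and 37.3, and stood at 13.4, 22.0 and 14.8 CPM in SYCE3-high cells. At the STRA8 step the largest decreases were in the tubulin TUBB4B (-0.72), the cyclin F gene CCNF (-0.67) and UBE2S (-0.59), the second E2 enzyme of the anaphase-promoting complex.

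At the SYCE3 step CENPK, an inner kinetochore subunit, stood at 92.9, 90.5 and 90.9 CPM in STRA8-positive and at 211, 217 and 233 CPM in SYCE3-high cells. The groups did not overlap (1.19 ± 0.08; edgeR adjusted p = 5.22e-10). LIN9, a subunit of the complex that activates late cell cycle genes, was higher by 1.07 and the condensin II subunit NCAPG2 by 0.99. The largest decreases were in the spindle pole gene ASPM (-1.27), the kinetochore gene SKA1 (-0.96) and the kinesin KIF18B (-0.94). CCNB3 was higher again at this step (0.44 ± 0.08; edgeR adjusted p = 7.66e-05), at 163, 130 and 145.2 CPM before and 221, 190 and 217 CPM after.

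Over the whole path the largest changes in that list were increases of CCNB3 (1.82), CENPK (1.67) and KIF18A (1.48) and decreases of CDCA5 (-2.27), the mitotic cohesion factor sororin, CDC25B (-2.09) and MYBL2 (-2.08), a transcription factor of late cell cycle genes. AURKC, the Aurora kinase known for meiosis and looked up after AURKB's values were seen, had means of 38.6 CPM in STRA8-positive and 66.0 CPM in SYCE3-high cells and was higher in 3 of 3 libraries (0.66 ± 0.13; edgeR adjusted p = 0.000346). As a reference, 14 S phase genes had 1 higher and 11 lower at the first step, 2 and 0 at the STRA8 step, and 6 and 8 at the SYCE3 step, and 10 G1 genes had 4 and 2, 2 and 0, and 5 and 2.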

How the data were processed

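Per the file headers, Cell Ranger 6.0.1 made the matrices of the droplet 3' RNA libraries, and the authors deposited filtered matrices of raw UMI counts per monkey feature and barcode. Genome build and annotation: not given in the sources used here. Total UMIs per library were 44762884, 30607553 and 70850640 in the order of mouse stage, and the 12 sums analysed held 1955881 to 22600554 UMIs. Intervals cover counting error only.

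Germ cells were chosen by mitochondrial share and depth, placed in states by POU5F1, STRA8 and SYCE3 (at least 2 UMIs of the gene, thresholds at 25% of the 98th percentile for SYCE3 and POU5F1 and 10% for STRA8), and their counts summed per library and state. No doublets were removed. The states and members, like the lists of other genes, were chosen with earlier results of these data known. The sums were tested with edgeR 4.0.16 (R 4.3.3, limma 3.58.1; filterByExpr, TMM, quasi-likelihood, library as block, 6 residual degrees of freedom) at an adjusted p of 0.05, leaving the 3 gate genes out. The scripts were tested on simulated data. DESeq2 1.42.0, other scalings, filters, gates, thresholds and left-out libraries were alternatives. Plain levels are CPM of total UMIs, and library ratios use log2(CPM + 1) over genes of at least 20 CPM. Thinning and shares used Python 3.11.15 with numpy 2.4.6 and scipy 1.17.1.

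All 35 members are named. Of the list of other mitotic genes, the 3 with the largest called change in each direction, equal in sign in 3 of 3 libraries, are named at each step. Libraries have no replicate of their own stage, so no p-value is given between stages.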

Additional observations from a re-analysis of the deposited data

Results flagged for a closer look

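In 5 members the SYCE3-high level went up over the STRA8-positive level in E14.5 and down in other libraries, with exact Poisson intervals apart. The differences between libraries were not tested. As log2 ratios of CPM + 1, in the order of mouse stage, CENPE had -0.69, 0.41 and -0.33, BIRC5 had -0.72, 0.25 and -0.53, and CDC20 had -0.41, 0.70 and -0.65. TOP2A had -0.26 in E13.5 and 0.64 in E14.5, and PRC1 had -0.51 and 0.62.

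Barcodes with 2 to 20% mitochondrial UMIs but under 10000 UMIs were in no comparison. The 35 genes summed to 4727, 4931 and 4518 CPM there, in the order of mouse stage, against 217, 243 and 259 CPM in mouse-type barcodes. Of these shallow barcodes, 371 of 421, 164 of 184 and 306 of 354 had the barcode of a germ cell in another library.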

How the results depend on the processing

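Over all alternatives 2030 values were classed as the same, 239 as having gained a call, 218 as having lost it and 33 as reversed. Not every change of sign is among the 33. With cells thinned to 10000 UMIs, 1 member was above 0 in STRA8-positive over unmarked cells, against 0 in the main fit. In that setting 0 values were classed as reversed. The causes of these changes were not tested, and the fewest cells (45 to 91 a library) limit the SYCE3-high state. The states of a library were paired in the main test by the library block. No paired analysis was possible between mouse stages because each has 1 library.

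With total UMIs in place of TMM, unmarked over POU5F1-high had 32 members higher and 1 lower, with BUB1B at 0.13, NDC80 at 0.17 and NUSAP1 at 0.46. Over all 15711 genes this scaling gave 9515 higher and 2408 lower. In SYCE3-high over POU5F1-high it gave 16 higher and 3 lower, with BUB1B at 0.22, TTK 0.12, CENPA 0.19, NDC80 0.33, BIRC5 0.36, CDCA8 0.62, TPX2 0.23, NUSAP1 0.41, HMMR 0.33, KIF11 0.12, PRC1 0.16 and PTTG1 0.19. In SYCE3-high over STRA8-positive it gave 5 higher. Over all 15711 genes it gave 9248 higher and 2862 lower in SYCE3-high over POU5F1-high, and 4906 higher in SYCE3-high over STRA8-positive.

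In unmarked over POU5F1-high, 1 member was lower with doubled thresholds, gates on sums of 3 genes, no library block, or without cells holding 2 or more somatic markers, and 1 to 3 with a library left out. Of all genes 4903 of 15132, 4024 of 14623, 4503 of 15711 and 4823 of 15083 were then lower. With a library left out the genes lower were 4131 to 4963. In STRA8-positive over unmarked the lower count was 5 with DESeq2, 18 with the STRA8 gate first, 15 with SYCE3-high cells above the median only, 16 thinned, 33 with doubled thresholds, 4 with 3-gene gates, 22 with no filter, 0 with no library block, 17 without barcodes found in another library, and 0 to 12 with a library left out. Over all genes in the same order it was 388 of 26014, 722 of 15814, 524 of 15648, 357 of 12094 and 1264 of 15132. Then it was 873 of 14623, 877 of 23616, 10 of 15711 and 279 of 14278, and 17 to 474 with a library left out.

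In SYCE3-high over STRA8-positive, 8 were higher with the STRA8 gate first or the upper SYCE3 cells only, 12 with doubled thresholds, 1 with the lower cells only, 3-gene gates, thresholds lowered by 50% or no library block, and 1 to 4 with a library left out. Of all genes, in the same order, 4074 of 15814, 4233 of 15648, 4136 of 15132, 2544 of 15566 and 3914 of 14623 were higher. Then it was 3515 of 15971 and 3474 of 15711, and 2962 to 3838 with a library left out. Lower were 9 with the STRA8 gate first or doubled thresholds, 4 without barcodes found in another library, and 10 to 27 with a library left out. Of all genes 4100 of 15814, 4342 of 15132 and 2281 of 14278 were then lower, and 2861 to 3964 with a library left out. The values classed as reversed without those barcodes were PLK1 (0.11) and UBE2C (0.029). With thresholds lowered by 50% they were NDC80 (-0.065), TOP2A (-0.26) and NUSAP1 (-0.18). With doubled thresholds they were BIRC5 (0.080), TPX2 (0.40), KIF11 (0.10), PRC1 (0.57) and ANLN (0.32). With the lower cells only they were TOP2A (-0.51) and NUSAP1 (-0.21). Without E14.5, TOP2A was classed as reversed (-0.29, with 0.21 as the highest value with a library left out).

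In SYCE3-high over POU5F1-high, 10 were higher and 10 lower with the STRA8 gate first, 12 higher with doubled thresholds, and 3 to 10 higher and 7 to 23 lower with a library left out. Of all genes 5854 of 15814 were higher and 5387 lower with the STRA8 gate first, and 5658 of 15132 higher with doubled thresholds. With a library left out 4977 to 6001 genes were higher and 4486 to 5326 lower. BUB1B was 0.12 with the upper cells only and, with doubled thresholds, BUB1B was 0.26, CDCA8 0.40 and NUSAP1 0.39. PTTG1 was 0.0099 without barcodes found in another library.

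The share of cells with at least 10 members, 52.8, 70.0, 72.7 and 61.0% as means over libraries in POU5F1-high, unmarked, STRA8-positive and SYCE3-high cells, was 97.9, 95.8, 98.2 and 93.9% with no thinning and 26.6, 48.2, 36.0 and 37.6% for at least 15 members. Doubled thresholds gave 45.6% in POU5F1-high and 69.2% in SYCE3-high cells, and thresholds lowered by 50% gave 73.3% in unmarked and 56.4% in SYCE3-high cells. The alternatives on the upper and lower SYCE3 cells and on shared barcodes were chosen after seeing the data.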
